A study of Mus musculus with 24 samples.

Results

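Round spermatids from Ago413-/- males were compared with round spermatids from Ago413+/+ males. The comparison held 7 of the 24 libraries of the series, 4 null and 3 wild-type, chosen by genotype and cell type as labelled. The wild-type library that the submitters marked as an outlier (replicate 3) was left out, so the wild-type replicates are numbers 1, 2 and 4. The 4 heterozygous (Ago413+/-) round spermatid libraries entered the fit only to estimate the spread between libraries.

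Argonaute proteins bind small RNAs and guide them to target transcripts. In the testis they are best known for microRNA silencing, and members have also been placed in the nucleus of meiotic germ cells, where the X and Y chromosomes are silenced. Round spermatids are the haploid cells that follow the meiotic divisions. They make the acrosome, begin the flagellum, transcribe the genes of chromatin compaction, and carry forward a partial repression of the X and Y chromosomes.

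The Ago413 allele is a constitutive deletion on chromosome 4 that takes out all of Ago1 and part of its neighbours Ago3 and Ago4. The study asked with these mice how germ cell transcription, including that of the sex chromosomes, depends on these Argonautes. Poly(A) RNA was sequenced from testis fractions enriched for round spermatids on an albumin gradient. All mice were C57BL/6J males of 10 to 15 weeks, and the testes of 2 to 5 mice went into each preparation, so that p-values measure the spread between pools of mice. The allele was made in embryonic stem cells of strain 129 with MICER vectors, which join pieces of Hprt, was deleted with a Sox2-cre mouse of mixed C57BL/6 and Swiss Webster origin, and was then backcrossed. The line was kept by crossing heterozygotes. An effect of the deletion and one of sequence inherited with it cannot be told apart in this design.

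Depth ranged from 15446660 to 27433487 counts in the wild-type libraries and from 18522612 to 25887128 in the null. Of 55536 genes in the table, 18846 had at least 10 counts in 3 or more of the 7 libraries and were tested. Levels are given in CPM (counts scaled to a common total of the tested genes, after TMM scaling). Each fold change is the log2 difference between the fitted means of the groups, null minus wild type. Markers of round spermatids were present in every library: 10 defining genes summed to 1771 to 2285 CPM in the wild type and 2119 to 2484 CPM in the null. The 12 defining spermatocyte markers summed to 936 to 1057 CPM and 706 to 954 CPM, so neither fraction was free of meiotic transcripts. The recorded purity of the fractions was at least 70%. In bulk fractions a smaller share of a cell type and less RNA per cell cannot be told apart.

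A gene was called at an adjusted p-value under 0.05 with an absolute log2 fold change above 0.5. By edgeR 11 genes were called (0.0584% of those tested), of which 5 rose (0.0265%) and 6 fell (0.0318%). Leaving out each library in turn gave 4 to 7 higher calls and 1 to 4 lower calls, with 1 lower call without wild-type replicate 2 or without wild-type replicate 4. The unadjusted p-value was under 0.05 for 3710 genes (19.7%), and 701 (3.72%) had an adjusted p-value under 0.1. DESeq2, run on the same genes and libraries, called 697 genes (3.7%), 319 higher (1.69%) and 378 lower (2.01%), and these held 10 of the 11 edgeR genes. For the other, Tyr, it gave no adjusted p-value. The null and wild-type libraries did not overlap for 3958 genes (21%), 1592 of them higher (8.45%) and 2366 lower (12.6%) in the null. Across all genes tested the median log2 fold change was 0.03 and the median absolute value 0.26. The size of the gene set thus depended on the test, and "called" without a tool means called by edgeR below.

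The targeted genes came first. Ago1 held 2.96, 4.28 and 2.62 CPM in the 3 wild-type libraries and 0 counts in all 4 null libraries. It was at least 20.8-fold lower in the null, taking 3 counts as the floor in the shallowest null library (edgeR adjusted p = 2.91e-05). Ago3, in contrast, was higher in every null library: 14.7, 15.0, 43.4 and 38.1 CPM in replicates 1 to 4 against 3.61, 5.65 and 3.58 CPM in the wild type. On the log2 scale Ago3 rose by 2.68 (edgeR SE 0.38, adjusted p = 0.0111), and null replicates 3 and 4 held much more than replicates 1 and 2. Replicates 3 and 4 are the null libraries with a number above 60 in the library name, and the log2 difference was 1.69 within libraries numbered up to 60 and 3.47 within those above. Counts per gene do not show which exons those reads came from. The paper states that these mice still make Ago3 and Ago4 transcripts, which carry premature stop codons. In its western blots of testis lysates AGO1, AGO3 and AGO4 were lost. Without wild-type replicate 1 the edgeR adjusted p of Ago3 was 0.19, and without wild-type replicate 4 it was 0.116.

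Ago4, which the deletion truncates, had 18.98, 15.1 and 13.2 CPM in the wild type and 10.1, 8.71, 12.4 and 9.64 CPM in the null. All null libraries lay below all wild-type libraries, with a log2 fold change of -0.63 (SE 0.17), but edgeR did not call it (adjusted p = 0.087) and DESeq2 did (adjusted p = 0.0176). Ago2, the remaining Argonaute and the only slicing one in mice, was not targeted. Its levels overlapped, at 6.20, 4.92 and 3.39 CPM in the wild type and 2.14, 2.39, 4.64 and 4.16 CPM in the null (log2 fold change -0.55, SE 0.32, edgeR adjusted p = 0.36). Of 16 genes of the microRNA pathway, among them Dicer1, Drosha and the Tnrc6 scaffolds, none was called by either tool, 2 had an unadjusted edgeR p under 0.05, both lower (3.7% and 19.7% of all genes tested), and the median was -0.07. That median was -0.35 within libraries whose number in the library name was up to 60 and 0.23 within those above.

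Genes whose sequence is carried by vectors of the MICER type were next. Tyr encodes tyrosinase, the pigment enzyme used as a coat-colour marker in such vectors. It had 0 counts in the 3 wild-type libraries and 2.50, 1.94, 2.47 and 2.16 CPM in the 4 null libraries. Tyr was thus at least 11.8-fold higher in the null by the floor of 3 counts (edgeR adjusted p = 9.92e-05). Hprt, the X-linked purine salvage enzyme, held 2.92, 2.77 and 2.56 CPM in the wild type and 5.35, 6.14, 4.41 and 6.00 CPM in the null. The groups stood apart by 0.99 (SE 0.23) on the log2 scale, short of the edgeR threshold (adjusted p = 0.0773) but called by DESeq2 (adjusted p = 0.00304). Reads from the resident genes and from sequence in the allele were not separated in gene counts.

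**Figure D1:**
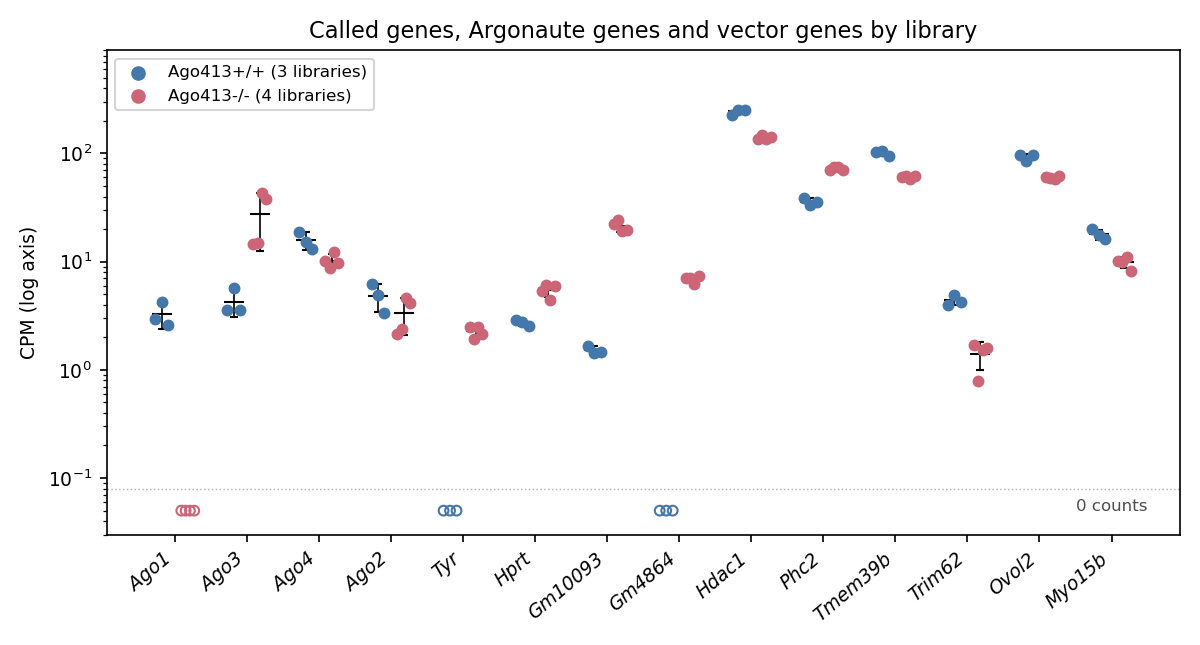
CPM on a log axis for the 11 called genes with Ago2, Ago4 and Hprt. Each point is a library, the black bars give mean and SD, and open points at the foot mark libraries with 0 counts. Ago1 is at 0 counts in the 4 null libraries, Tyr and Gm4864 are at 0 counts in the 3 wild-type libraries, and the groups overlap only for Ago2.

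The genes with the smallest p-values were 2 processed pseudogenes. Gm10093 (ENSMUSG00000061062, GRCm38 chr17:78491582-78493025) held 1.66, 1.44 and 1.47 CPM in the wild type and 22.4, 24.4, 19.3 and 19.6 CPM in the null. It rose by 3.81 (SE 0.17) on the log2 scale (edgeR adjusted p = 2.15e-08). Gm4864 (ENSMUSG00000112003, chr12:77623549-77625009) had 0 counts in the wild type and 7.00, 7.07, 6.24 and 7.37 CPM in the null. This is a rise of at least 36.1-fold by the same floor (edgeR adjusted p = 1.13e-06). Both are copies of Hdac1, the class I histone deacetylase of the Sin3, NuRD and CoREST complexes.

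Hdac1 itself (ENSMUSG00000028800, chr4:129516104-129542713) was among the called genes in the opposite direction. It had 229, 254 and 254 CPM in the wild type and 137, 149, 137 and 142 CPM in the null, and fell by 0.80 (SE 0.11, edgeR adjusted p = 0.00617). The call was lost without wild-type replicate 2 (adjusted p = 0.0513) or replicate 4 (adjusted p = 0.0611). Of the 31-base words in Gm10093 transcripts, 86.1% also occur in Hdac1 transcripts, and for Gm4864 25.8% do. Reads can therefore be shared among them or lost from them in the counting. The alignment below shows 90 coding bases of Hdac1 beside both copies. Only windows inside a single coding exon with a limited number of Gm4864 differences were considered. Of those examined, this window had the most Gm10093 differences, and it represents neither copy as a whole. The sequences come from GENCODE M21 transcripts on GRCm38. The Hdac1 stretch is at chr4:129522972-129523061 in exon 5 on the minus strand, the Gm10093 stretch at chr17:78491977-78492066 on the plus strand, and the Gm4864 stretch at chr12:77624525-77624614 on the minus strand, and capitals mark bases that differ from Hdac1.
Hdac1: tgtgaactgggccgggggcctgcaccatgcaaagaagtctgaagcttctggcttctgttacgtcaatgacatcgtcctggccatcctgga
Gm10093: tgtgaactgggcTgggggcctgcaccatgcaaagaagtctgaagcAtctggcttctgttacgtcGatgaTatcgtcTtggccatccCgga
Gm4864: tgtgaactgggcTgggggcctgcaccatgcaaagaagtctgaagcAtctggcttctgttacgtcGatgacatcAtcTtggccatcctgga
Here Gm10093 differs from Hdac1 at 6 positions and Gm4864 at 5. Summed, wild-type libraries held 247 ± 14.3 CPM of the 3 genes (SD, n = 3) and null libraries 170 ± 7.96 CPM (SD, n = 4). The sum was therefore lower in the null too, with a log2 ratio of -0.54. A further tested copy, AC125456.1, shares 27.5% of its words with Hdac1 and is not in that sum. It had 6, 6 and 5 counts in the wild type and 20, 27, 41 and 16 counts in the null (log2 fold change 2.14, edgeR adjusted p = 0.0672). Among 17 tested genes of HDAC complexes the median was -0.21, with -0.30 within libraries numbered up to 60 and -0.012 within those above. DESeq2 called 2 of them lower (2.01% of all genes were), Hdac1 and the NuRD subunit Mta2, which had a log2 fold change of -0.63 (SE 0.15, adjusted p = 0.0773 by edgeR).

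The called genes clustered on chromosome 4. The interval from Ago3 to Ago4 and 5 Mb on either side held 140 tested genes, of which edgeR called 6 (4.29%) and DESeq2 17 (12.1%). Among all other genes tested the shares were 0.0267% and 3.64%. The excess lay on one side. Of 71 genes in the 5 Mb beyond Ago4, edgeR called 4 and DESeq2 13 (18.3%), while of 66 genes in the 5 Mb before Ago3 edgeR called 0 and DESeq2 called 1 (13 had an unadjusted edgeR p under 0.05, and 19.7% of all genes did). From 5 to 20 Mb away the DESeq2 shares were 3.64% before and 3.41% after the interval, and beyond 20 Mb they were 3.00% and 6.99%. No test was made of this contrast.

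Phc2, a Polyhomeotic subunit of Polycomb repressive complex 1, lies 2.12 Mb beyond the interval. It had 38.5, 33.1 and 35.7 CPM in the wild type and 70.8, 74.95, 75.1 and 69.9 CPM in the null. The groups were tight and well apart, and Phc2 rose by 1.02 (SE 0.11, edgeR adjusted p = 0.000541). None of the other 21 Polycomb genes tested was called by either tool (DESeq2 called 3.7% of all genes), and 6 had an unadjusted edgeR p under 0.05 (19.7% of all genes did). Trim62, a RING-finger ubiquitin ligase 2.35 Mb away, had 4.01, 4.92 and 4.28 CPM in the wild type and 1.69, 0.795, 1.53 and 1.58 CPM in the null, and fell by 1.65 (SE 0.25, edgeR adjusted p = 0.0226). Tmem39b, a membrane protein gene 3.14 Mb away, had 104, 105 and 95.5 CPM against 60.1, 62.5, 57.5 and 62.0 CPM, and fell by 0.75 (SE 0.11, edgeR adjusted p = 0.0111). The null libraries of Phc2 and Tmem39b lay close together, unlike those of Ago3. Both Trim62 and Tmem39b lost the call without any of the 3 wild-type libraries or without null replicate 3, and Trim62 also without null replicate 4.

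Further neighbours moved in both directions without an edgeR call. Zbtb8os, which encodes archease of the tRNA ligase complex, was higher by 0.79 (SE 0.15, edgeR adjusted p = 0.0654), with 19.5, 15.98 and 23.1 CPM in the wild type and 32.3, 31.3, 35.1 and 36.3 CPM in the null. The long noncoding 1700086P04Rik was also higher by 0.79 (SE 0.15, edgeR adjusted p = 0.0654). Tmem35b, named after its values were seen, is 0.59 Mb from the interval and had a log2 fold change of -1.32 (SE 0.26, adjusted p = 0.0672 by edgeR). DESeq2 called all 3. Higher and lower genes thus stood side by side in the same few megabases.

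**Figure D2:**
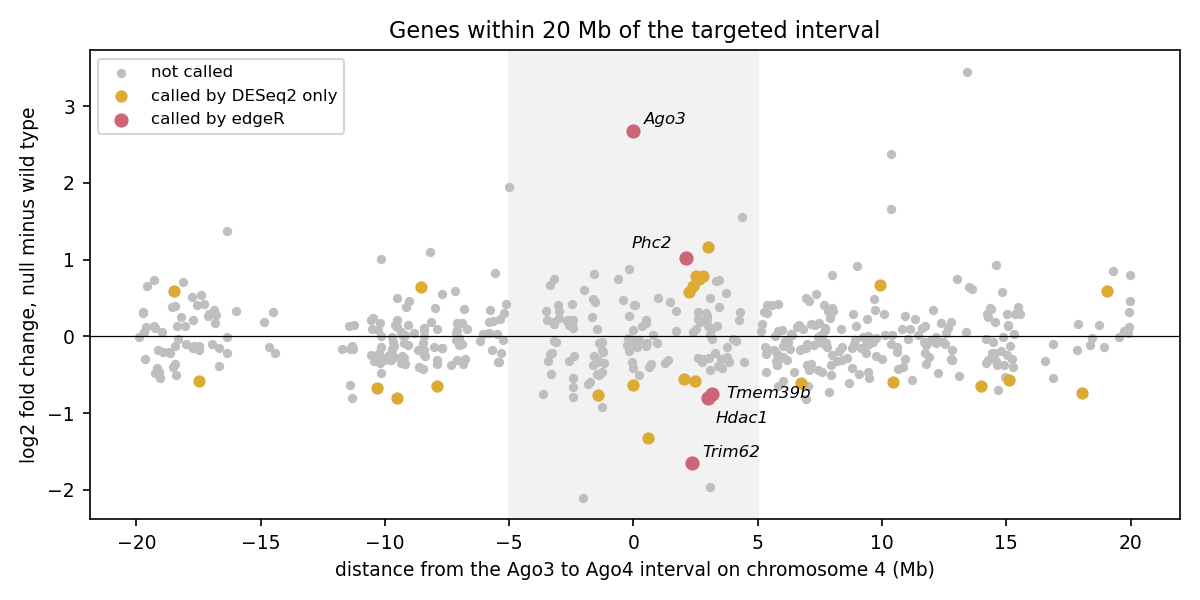
Log2 fold change (null minus wild type) of genes within 20 Mb of the Ago3 to Ago4 interval on chromosome 4, against distance in Mb, with Ago1 (0 counts in the null) left out. Red points were called by edgeR, yellow points by DESeq2 only, and the grey band marks 5 Mb on either side. Calls crowd between 0 and 5 Mb beyond the interval, where DESeq2 called 13 of 71 genes.

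The last called genes lay on other chromosomes. Ovol2, a zinc-finger repressor of the Ovo family (chr2:144305175-144332146), had 96.2, 85.2 and 97.6 CPM in the wild type and 60.4, 59.1, 57.8 and 62.4 CPM in the null, and fell by 0.63 (SE 0.10, edgeR adjusted p = 0.0438). Its paralogue Ovol1, a regulator of the exit from meiotic pachytene, had a log2 fold change of -0.80 (SE 0.18) and non-overlapping groups, at an edgeR adjusted p of 0.0767 and a DESeq2 adjusted p of 0.00295. Myo15b, an unconventional myosin gene on chromosome 11, had 19.9, 17.5 and 16.1 CPM against 10.2, 9.94, 11.1 and 8.21 CPM, and fell by 0.86 (SE 0.14, edgeR adjusted p = 0.0492). Ovol2 and Myo15b sat at the edge of the threshold, and leaving out any of the 7 libraries took the call of each away, with adjusted p between 0.0725 and 0.21.

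Below the edgeR threshold, protein-coding autosomal genes with the smallest p-values and groups apart were read for direction. Among the lower genes were Gpr162, an orphan receptor (log2 fold change -0.78, SE 0.13), Cnst, which encodes the connexin-trafficking protein consortin (-1.03, SE 0.18), and Atp6v0e2, a subunit of the vacuolar proton pump (-0.79, SE 0.14). Their edgeR adjusted p-values were 0.0511, 0.0511 and 0.0513. Atp6v0e2 was the tightest, with 12.1, 12.6 and 12.1 CPM in the wild type and 7.05, 7.34, 7.40 and 6.69 CPM in the null.

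On the higher side stood Tnfaip3, the A20 inhibitor of NF-kappaB signalling, at 2.19, 1.97 and 1.21 CPM in the wild type and 4.41, 4.38, 4.04 and 3.74 CPM in the null (log2 fold change 1.18, SE 0.22, edgeR adjusted p = 0.0639). Selenop, a secreted selenium carrier, differed by 1.23 (SE 0.23, edgeR adjusted p = 0.0654). Rapgef5, a Rap exchange factor, differed by 0.68 (SE 0.14), Mboat2, a lysophospholipid acyltransferase, by 0.59 (SE 0.12) and Cd24a, a surface sialoglycoprotein, by 0.91 (SE 0.19), each at an edgeR adjusted p of 0.0703. DESeq2 called all 8 of these genes. Of noncoding RNAs, Mir670hg, a microRNA host transcript, was higher by 0.73 (SE 0.14, edgeR adjusted p = 0.0639), and 4930515G01Rik had a log2 fold change of -0.84 (SE 0.16, adjusted p = 0.0639 by edgeR).

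X-linked genes were higher as a group. Of 716 X-linked genes tested, 611 (85.3%) had a higher fitted mean in the null, against 51% of 17931 autosomal genes, and the median log2 fold change was 0.38 against 0.01. The libraries did not overlap for 144 X-linked genes that were higher (20.1%, against 8.45% of all genes tested) and for 5 that were lower (0.698%, against 12.6%). No X-linked gene was called by edgeR, though its unadjusted p was under 0.05 for 173 that were higher and 5 that were lower (19.7% of all genes in either direction). DESeq2 called 48 higher (1.69% of all genes) and 1 lower (2.01%). X-linked transcripts took 0.959, 1.04 and 1.06% of all counts in the wild-type libraries and 1.44, 1.37, 1.29 and 1.26% in the null.

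For a test over libraries, an X score was taken in each, as the difference in mean log2 CPM between X-linked and autosomal genes. It was -1.50, -1.31 and -1.40 in the wild type and -1.05, -1.07, -1.07 and -1.08 in the null. The null scores were close together and all above the wild-type scores, a difference of 0.34. The exact two-sided permutation p was 0.0571 with the smaller tail doubled and 0.0286 by the absolute difference, each the smallest that 4 libraries against 3 can give by that reckoning. The X difference was similar within libraries numbered up to 60 (median 0.32, 2 wild-type and 2 null libraries) and within those numbered above 60 (median 0.32, 1 wild-type and 2 null libraries). The number is that of the library name, and what it stands for is not given in the sources used here.

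The X-linked difference was spread over expression levels and positions. The median was 0.40 for X-linked genes under 1 CPM, 0.36 from 1 to 10 CPM, 0.43 from 10 to 100 CPM and 0.46 at 100 CPM or more, where 16 of 16 genes were higher. Autosomal medians in those classes were 0.13, 0.07, -0.09 and 0.01. Along the chromosome, in steps of 20 Mb, the X-linked median stayed between 0.29 and 0.48. Genes of the Y chromosome had a median of 0.43 over 181 genes, but most belong to multicopy families whose reads are hard to place, and their median was 0.64 within libraries numbered up to 60 and 0.08 within those above.

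**Figure D3:**
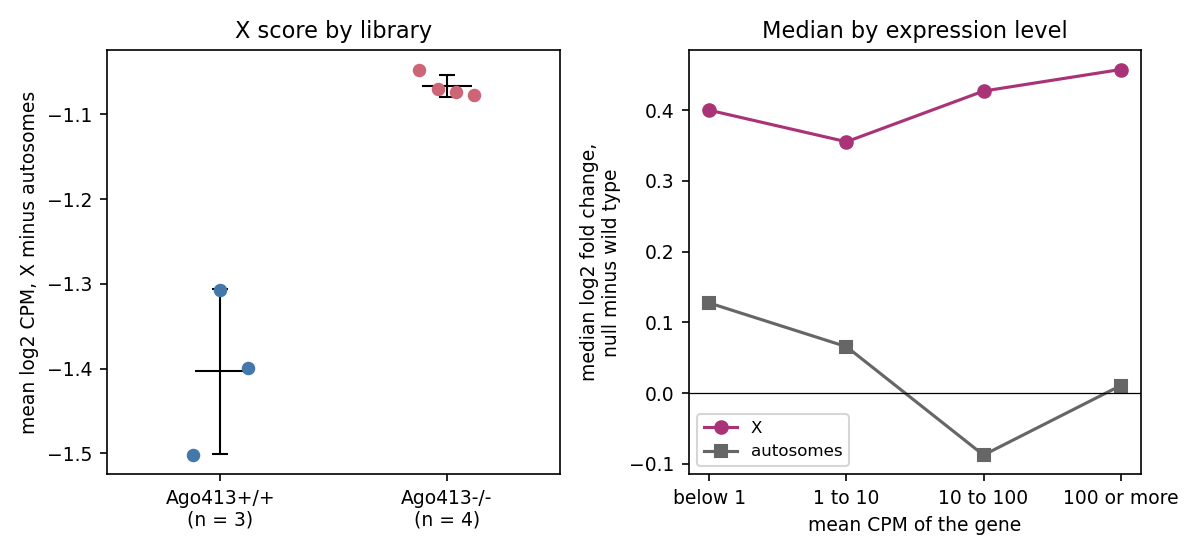
Left, X score (difference in mean log2 CPM, X-linked less autosomal) per library, with mean and SD in black. Right, median log2 fold change of X-linked and autosomal genes in 4 classes of mean CPM. The 4 null libraries lie between -1.08 and -1.05, above the wild-type range of -1.50 to -1.31, and the X-linked median exceeds the autosomal median in every class.

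The X-linked genes named next were picked for the smallest edgeR p-values. Differences above the X-linked median of 0.38 and groups that stand apart follow partly from that choice. Cpxcr1, a testis zinc-finger gene, had 19.7, 19.9 and 21.5 CPM in the wild type and 33.5, 31.2, 36.6 and 43.0 CPM in the null (log2 fold change 0.82, SE 0.16, edgeR adjusted p = 0.0672). Ppef1, a calcium-regulated protein phosphatase, had 23.8, 27.4 and 23.8 CPM against 37.7, 42.4, 43.1 and 41.2 CPM (0.72, SE 0.15, edgeR adjusted p = 0.0703). For both genes the lowest null library exceeded the highest wild-type library. Otud6a, a deubiquitinase, differed by 0.88 (SE 0.19), Haus7, an augmin subunit of the spindle, by 0.64 (SE 0.14) and Satl1, an acetyltransferase-like gene, by 0.73 (SE 0.16). DESeq2 called each of the 5.

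The 5 X-linked genes that were lower without overlap had means under 10 CPM. Ssxb5, of the multicopy SSX family, had 2.68, 3.90 and 2.17 CPM in the wild type and 1.69, 1.86, 1.46 and 1.26 CPM in the null (-0.91, SE 0.28, edgeR adjusted p = 0.118). It was the X-linked gene that DESeq2 called lower (DESeq2 adjusted p = 0.0432). The predicted gene Gm14459 had a log2 fold change of -0.74 (SE 0.29, adjusted p = 0.178 by edgeR). Akap4, the X-linked gene of the main fibrous sheath anchor, had 2587, 2537 and 2551 CPM in the wild type and 4023, 3758, 3104 and 2909 CPM in the null, without overlap but far from the threshold (0.43, SE 0.23, edgeR adjusted p = 0.317).

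Stage markers that the study drew from wild-type single cells were used to read the composition of the fractions. The list with the most genes apart between the groups was that of diplotene to second meiotic division cells (diplotene/M1/M2). Of its 96 tested genes 94 were lower in the null, 78 of them without overlap between the groups (12.6% of all genes tested were), with a median of -0.45. DESeq2 called 26 of them lower (2.01% of all genes) and edgeR 1, Ovol2. The genes included Rfx8, an RFX family factor (-0.74, SE 0.13, edgeR adjusted p = 0.0556), and Dapp1, a signalling adaptor (-0.70, SE 0.13, edgeR adjusted p = 0.0556).

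Ccna1, the germ-cell cyclin A needed for entry into the first meiotic division, had lower values of the same kind, 257, 226 and 244 CPM in the wild type and 168, 161, 162 and 160 CPM in the null (-0.57, SE 0.12, edgeR adjusted p = 0.0703). Kinases of division were singled out after their values were seen. Aurka had 261, 209 and 223 CPM against 123, 123, 144 and 137 CPM (-0.81, SE 0.16, edgeR adjusted p = 0.0703). Nek2 had a log2 fold change of -0.73 (SE 0.20) and Cdk1 of -0.63 (SE 0.20), at edgeR adjusted p of 0.0866 and 0.121. In all 4 the null libraries lay below the wild-type libraries, and DESeq2 called each.

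The diplotene/M1/M2 difference was seen in both sets of library numbers, with medians of -0.47 up to 60 and -0.34 above. For the pachytene and the spermatid lists the difference was not seen above 60, where 1 wild-type library stood against 2 null libraries. Pachytene markers had a median of -0.33 over 90 genes, 81 of them lower, but -0.74 within libraries numbered up to 60 and 0.054 within those above. Early round spermatid markers were higher for 97 of 98 genes with a median of 0.26, which was 0.49 up to 60 and -0.037 above. Late round spermatid markers (median 0.24, then 0.47 and 0.024) and elongating spermatid markers (0.20, then 0.42 and 0.012) behaved alike. Spermatogonia markers had a median of 0.25, with 0.08 and 0.40, and leptotene/zygotene markers one of -0.03, with -0.21 and 0.17. Wild-type replicates 1 and 2, both numbered up to 60, also differed from each other. Early round spermatid markers summed to 8268 and 11047 CPM in them, and pachytene markers to 2723 and 2108 CPM. The part of fraction composition in the results above was not tested.

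**Figure D4:**
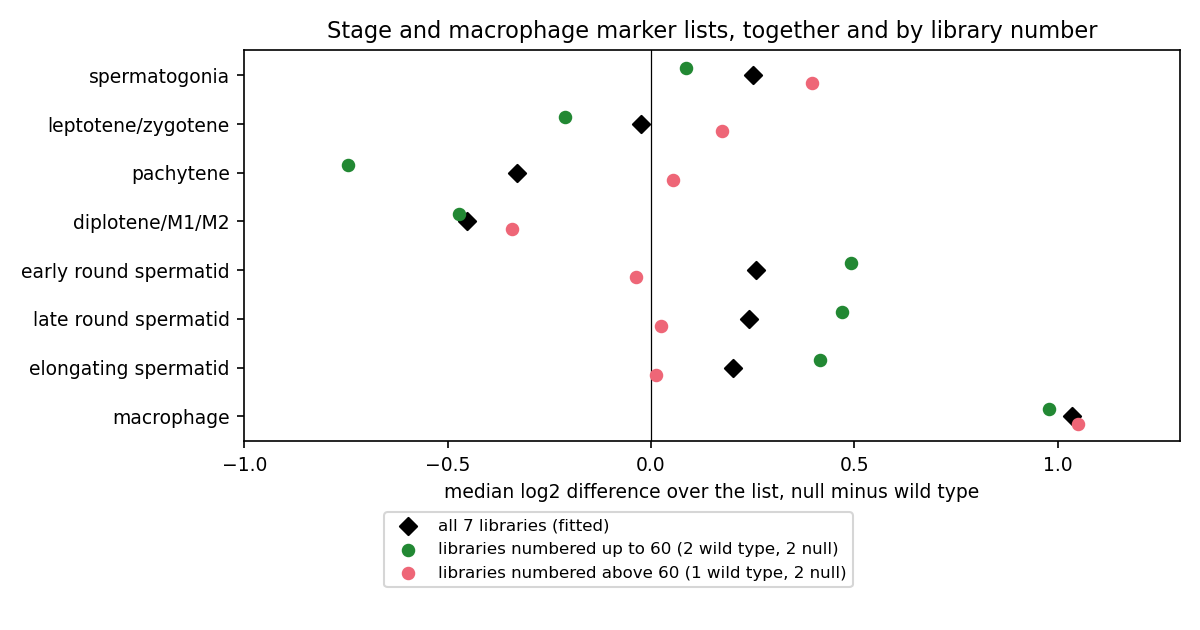
Median log2 difference, null minus wild type, over 7 stage marker lists and a macrophage list. Black diamonds use all 7 libraries, green points the libraries numbered up to 60 and red points those above 60. Only for the diplotene/M1/M2 and macrophage lists do the green and red points lie together and away from 0.

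Of the lists of spermatid functions, some were split in the same way. The acrosome list (27 genes) had a median of 0.26, with 0.48 within libraries numbered up to 60 and 0.0052 within those above. Gamete fusion genes (9 genes, median 0.25) gave 0.53 and -0.15, and protamine and histone replacement genes (14 genes, median 0.20) gave 0.47 and -0.15. Axoneme genes (27 genes, median -0.07) gave -0.19 and -0.06, and CatSper and ion channel genes (16 genes, median 0.18) gave 0.08 and -0.02. Prm2, the protamine of sperm chromatin, ranged from 7439 to 11275 CPM in the wild type and from 7026 to 13515 CPM in the null, and Tnp2, a transition protein, from 3838 to 4958 CPM and from 4495 to 7636 CPM. Both overlapped widely. No gene of the protamine, axoneme, translation, testis kinase or glycolysis lists was called by either tool (DESeq2 called 3.7% of all genes). Of these 95 genes 15 had an unadjusted edgeR p under 0.05, 2 higher and 13 lower, against 19.7% of all genes.

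Some members of the function lists stood apart. Of 22 ADAM genes and their chaperones, which serve sperm surface maturation, 8 (36.4%) were higher without overlap, against 8.45% of all genes tested, and DESeq2 called 4 higher (18.2%, against 1.69% of all genes). Of the acrosome genes 6 (22.2%) and of the 18 outer dense fibre and fibrous sheath genes 4 (22.2%) were higher without overlap. Lower without overlap were 1 ADAM list gene (4.55%), 2 acrosome genes (7.41%) and 0 fibrous sheath list genes, against 12.6% of all genes. The fibrous sheath list had medians of 0.43 up to 60 and 0.11 above. Adam29 had 21.9, 38.4 and 38.2 CPM in the wild type and 48.0, 50.4, 55.4 and 62.6 CPM in the null (0.72, SE 0.18, edgeR adjusted p = 0.0828), and Adam6a differed by 0.59 (SE 0.14, edgeR adjusted p = 0.0773). The ADAM list had medians of 0.21 and 0.15 in the sets of library numbers, up to 60 and above. Hyal5, a sperm hyaluronidase of the acrosome list, was higher by 0.67 (SE 0.18, edgeR adjusted p = 0.0846). Of 17 head shaping genes 12 were higher, with a median of 0.16. Without overlap 4 were higher and 2 lower (23.5% and 11.8%, against 8.45% and 12.6% of all genes). Against the direction of that list, the kinesin motor Kifc1 had a log2 fold change of -0.64 (SE 0.18, adjusted p = 0.0896 by edgeR). DESeq2 called Adam29, Adam6a, Hyal5 and Kifc1.

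Transcripts of somatic cells were measured beside these results. Of 14 tested macrophage markers 13 were higher in the null, with a median of 1.03, and 8 were without overlap (8.45% of all genes were). DESeq2 called 4 higher (1.69% of all genes) and edgeR 0, with 8 at an unadjusted edgeR p under 0.05, all higher (19.7% of all genes in either direction). Cd74, the invariant chain of antigen presentation, had 2.11, 4.49 and 1.34 CPM in the wild type and 8.92, 9.41, 14.1 and 11.9 CPM in the null (2.02, SE 0.45, edgeR adjusted p = 0.0767). Lyz2, lysozyme of myeloid cells, had 0.852, 1.09 and 0.703 CPM against 3.12, 2.03, 2.47 and 2.79 CPM (1.53, SE 0.37, edgeR adjusted p = 0.0773). The others that DESeq2 called, Csf1r, the receptor that macrophages depend on, and H2-Aa, an MHC class II chain, were named after their values were seen and differed by 1.44 (SE 0.36) and 1.59 (SE 0.40).

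The summed macrophage level was 511 to 707 CPM in the wild type and 638 to 843 CPM in the null, but most of it was Aif1, a calcium-binding gene that spanned 467 to 663 CPM and 564 to 758 CPM. Without Aif1 the list summed to 56.4, 43.7 and 43.7 CPM in the wild type and 85.3, 76.7, 74.6 and 61.0 CPM in the null. The difference was present within libraries numbered up to 60 (median 0.98) and above (1.05). Of 9 peritubular markers 7 were higher, 2 of them without overlap (22.2%, against 8.45% of all genes), with a median of 0.46 and summed levels of 7.80 to 11.6 CPM in the wild type and 12.3 to 18.01 CPM in the null. Among them Dcn, a matrix proteoglycan, had 0.730, 0.597 and 0.767 CPM against 3.21, 2.78, 1.42 and 4.32 CPM (2.07, SE 0.46, edgeR adjusted p = 0.077) and was the only DESeq2 call (1.69% of all genes were called higher). No Sertoli, Leydig, endothelial or erythrocyte marker was called by either tool (DESeq2 called 3.7% of all genes) and 1 of 28 had an unadjusted edgeR p under 0.05 (19.7% of all genes did), with medians of 0.19, 0.01, 0.06 and 0.49. The Sertoli median was -0.15 within libraries numbered up to 60 and 0.57 within those above, and the peritubular median 0.26 and 0.94. The part of somatic cells in other differences was not tested.

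**Figure D5:**
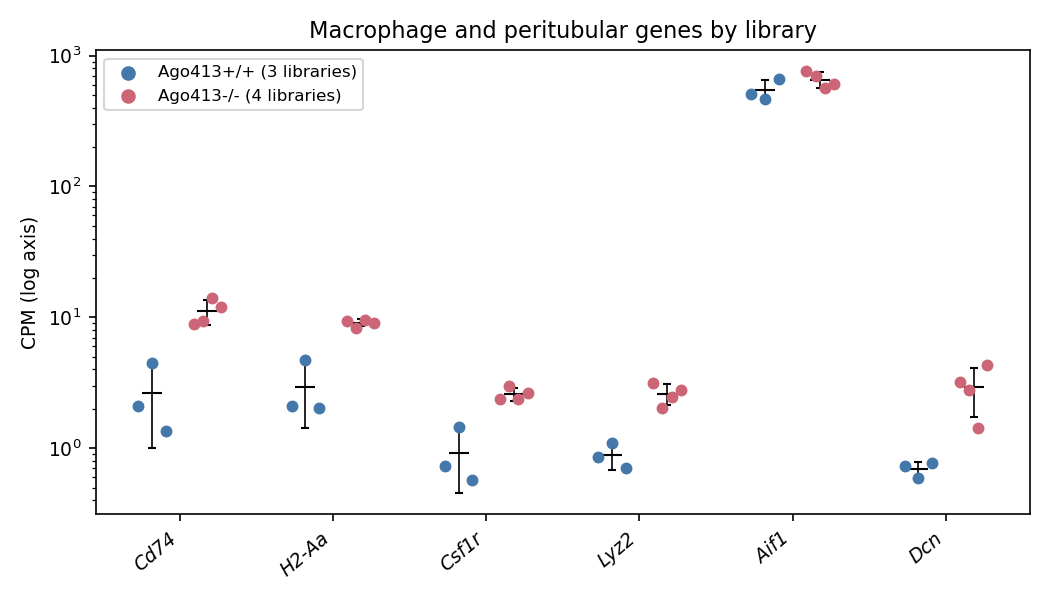
CPM on a log axis for 5 macrophage markers and the peritubular gene Dcn, each point a library, with mean and SD in black. The 4 null libraries lie above the 3 wild-type libraries for every plotted gene but Aif1, whose groups overlap. The 4 other macrophage genes plotted are those that DESeq2 called. Of all 14 tested macrophage markers 8 were higher without overlap, and C1qb, not plotted, was lower (log2 fold change -0.10).

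Promoters of the genes that differed were searched for motifs of spermatid transcription factors, in 300 bases around the start (RefSeq, GRCm38). The cyclic AMP response element TGACGTCA, the full site of CREM, and GTTGCCA, part of the X-box bound by RFX factors, were sought on either strand. Of 13102 genes with a promoter sequence, 2.98% held the first and 5.01% the second. Among genes higher without overlap the shares were 2.92% and 5.57%, and among those lower without overlap 3.03% and 4.93%. In the stage lists the X-box part was in 0 of 81 spermatogonia promoters, in 1.28% of leptotene/zygotene, 4.35% of pachytene, 10.4% of diplotene/M1/M2, 10.1% of early round spermatid, 1.92% of late round spermatid and 3.64% of elongating spermatid promoters, each list holding 52 to 81 of them.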

How the data were processed

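The authors deposited 1 table of raw counts per gene. Per the labels and the methods of the study, strand-specific poly(A) libraries were trimmed with Trim Galore and aligned to mm10 with STAR, whose gene counts are the deposited values. Only uniquely aligned reads are counted in this way, so reads of near-identical copies can be lost. Annotation release, strand column and versions are not given in the sources used here. Symbols, coordinates and biotypes came from GENCODE M21.

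Genes with at least 10 counts in 3 of the 7 libraries were tested with edgeR 4.0.16 (quasi-likelihood F test, R 4.3.3, TMM scaling, Benjamini-Hochberg adjustment), fitted on 11 round spermatid libraries. The study's tool, DESeq2 1.42.0, was an alternative. X scores used log2 CPM with a prior count of 2. Floors of 3 counts cover counting error only. Scripts were tested on simulated data.

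No libraries were repeat deposits (chi-square per gene 9.90 to 57.1 over 9 pairs). The library marked as an outlier correlated with the wild-type group at 0.958, the 7 others with their own at 0.979 to 0.985. Members and gene lists were chosen with earlier results of these data known. Named genes were all calls and the Argonaute and vector genes. Others had the smallest p-values among autosomal genes with groups apart, or among X-linked or noncoding genes. Per list, genes with the smallest p-values or highest means were named. Other processing choices tried were scaling, filter, libraries and covariates.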

Additional observations from a re-analysis of the deposited data

Results flagged for a closer look

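Of 90 values examined in the 4 null libraries (single genes, summed lists and the X score), 2 had a library far from the others. Such gaps arise by chance in about 1 in 20 groups. Mir670hg was 50.2 CPM in null replicate 2 and 37.0 to 38.3 CPM in the other 3. The summed level of spermatid transcription regulators was highest in a single null library at 4694 CPM, with 4362 to 4377 CPM in the rest and 4545 to 4562 CPM in the wild type.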

How the results depend on the processing

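The number of calls depended on the processing. Against 11 genes, DESeq2 called 697, RLE size factors 19 (5 higher and 14 lower, against 5 and 6), no filter on low counts 238, and the fit with the wild-type library marked as an outlier 40. DESeq2 with only the wild-type and null libraries, chosen after seeing the data, called 786. With only those 7 libraries edgeR called 10 (7 of the 11 genes kept), and with library number as a term 9. Leaving out each library gave 5 to 9 calls, with the fewest, 5, without wild-type replicate 4, then 6 without wild-type replicate 1 and 7 without null replicate 3. With the replicate number as a block 8 genes were called, 7 of the 11 among them. Same-numbered libraries correlated at 0.089, 0.056 and 0.124, and not every library correlated best with its own number, so the numbers were not taken to pair samples. Ago3 kept a log2 fold change of 2.68 with only the 7 libraries but not the call (adjusted p = 0.0585), and spanned 2.38 to 2.95 as libraries were left out. DESeq2 passed Ago4 at -0.61 and Hprt at 1.00, which edgeR did not. Ago1 and Tyr kept their calls in each fit that left out a library, and Ago4 spanned -0.74 to -0.46, Hprt 0.93 to 1.08 and Ago2 -0.76 to -0.32 without a call. The X score difference kept its sign throughout, at 0.29 to 0.38 as libraries were left out, and with the library marked as an outlier it was 0.30 (exact two-sided permutation p = 0.0286, the smallest that 4 against 4 can give). No named gene changed direction in the refits with DESeq2, with only the 7 libraries, with the block or without a library, but Ago2 (-1.26 and 0.37), Aif1 (0.58 and -0.19) and Tnp2 (0.65 and -0.06) did so between library numbers up to 60 and above. Within libraries numbered above 60, with 1 wild-type library, the median was 0.054 for pachytene markers and -0.037 for early round spermatid markers. For a gene with 0 counts the depth left levels of up to 0.192 CPM possible in wild-type libraries and 0.158 CPM in null libraries.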
